A study of Mus musculus with 8 samples.

Results

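MicroRNA miR-21a was followed through both of its mature arms, mmu-miR-21a-5p and mmu-miR-21a-3p, in mouse kidney after ischemia-reperfusion injury (IRI) and after sham surgery. The members were chosen by name, as the array entries annotated to either arm, and make up 2 of the 1881 mouse miRNAs on the array. Both arms were found, with 2 probes for the 5p arm and 4 for the 3p arm. Male C57BL/6 mice aged 9 weeks were used in both groups. The IRI group (4 arrays, IRI 1, 2, 3 and 18) is a model of acute kidney injury in which the right kidney was removed and the left kidney was clamped and reperfused through 1 midline opening. Clamping took 25 or 45 min and harvest followed after 12 or 24 h, and the labels do not tie these times to single IRI samples. The sham group (4 arrays, sham 1, 2, 3 and 6) received a midline incision alone and kept both kidneys, so nephrectomy and injury cannot be told apart between the groups. The labels do not say that samples came from separate animals, so the p-values measure the spread between these samples, which may be technical. RNA from 30 mg of whole kidney was measured, and in such bulk samples fewer cells of a type and less RNA per cell cannot be told apart.

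A miRNA is cut from a hairpin precursor as a duplex of a 5p and a 3p strand. One strand, the guide, is kept in the Argonaute protein and pairs with messenger RNAs through its seed, bases 2 to 8, while the other strand is usually degraded. For miR-21 the 5p strand is the guide. It is among the most abundant miRNAs of many tissues, its gene is a known target of the transcription factors AP-1 and STAT3, and Pdcd4 is a textbook target. In kidney it is known for its rise in injury and fibrosis.

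The mature sequences are shown because the seed and the bases that tell miR-21a from its relatives decide what the probes can measure. They are written 5′ to 3′ as given by RefSeq (build GRCm38.p6), with the seed in capitals:
miR-21a-5p: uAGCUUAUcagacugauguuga
miR-21a-3p: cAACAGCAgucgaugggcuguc
miR-21b: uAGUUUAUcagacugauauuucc
miR-21c: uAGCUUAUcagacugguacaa
The arms of miR-21a have different seeds. Counted from 1 at the 5′ end of miR-21a-5p, miR-21b differs from it by C4U, G18A, G21U and A22C, the first of which lies in the seed. miR-21c differs by A16G, G18A, U19C, U20A and G21A and keeps the seed. Of the 1881 measured miRNAs, 1608 matched a RefSeq sequence. Among these, miR-21c was the other miRNA with the seed of miR-21a-5p, and none shared the seed of miR-21a-3p. miR-590-5p was named only, but the 22 nt probe for it is complementary to a sequence with the same bases 2 to 8 as miR-21a-5p. RefSeq places the Mir21a hairpin on the minus strand at chr11:86584067-86584158 (GRCm38.p6), inside the annotated span of Vmp1, a gene for an autophagy membrane protein, and 209 bases from the lower-coordinate end of Vmp1. The mature strands lie at chr11:86584120-86584141 for 5p and chr11:86584082-86584103 for 3p.

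The probes are shown because each arm is read by a nested series that differs only at 1 end, given here 5′ to 3′ with the bases beyond the shortest probe of a series in capitals:
5p, 20 nt: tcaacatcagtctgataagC
5p, 19 nt: tcaacatcagtctgataag
3p, 15 nt: gacagcccatcgACT
3p, 14 nt: gacagcccatcgAC
3p, 13 nt: gacagcccatcgA
3p, 12 nt: gacagcccatcg
Each probe is the reverse complement of the 3′ part of its miRNA. The 5p probes pair with bases 3 to 22 and 4 to 22, which includes most of the seed. The 3p probes pair with bases 8, 9, 10 or 11 to 22, so the longest of them reaches 1 base of the seed. Probes of 1 arm overlap and are no replicates of each other.

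Across the series, sham arrays detected 327 to 379 miRNAs and IRI arrays 393 to 447 (exact permutation test over the 70 splits of 8 arrays, two-sided, p = 0.0286, the smallest it can give). All 8 arrays lay on 1 slide, sham in slide row 1 and IRI in slide row 2, so row and group cannot be told apart, while a sham and an IRI array shared each of the 4 slide columns. Signals below are scaled: each array was divided by a factor, the 75th percentile of the 317 miRNAs that every array detected, taken relative to the geometric mean of these percentiles. Before scaling, that percentile was 356 to 456 on sham and 445 to 562 on IRI arrays (exact permutation test, p = 0.0571). With 4 arrays a group, the number of arrays limits the precision.

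The guide strand, miR-21a-5p, was higher in injured kidney on every array. Its scaled signal was 7116 on sham 1, 7017 on sham 2, 7764 on sham 3 and 6822 on sham 6. It was 15093 on IRI 1, 19570 on IRI 2, 19796 on IRI 3 and 26431 on IRI 18. The groups did not overlap, and the lowest IRI array was 1.94 times the highest sham array. The means were 7180 ± 408 in sham and 20222 ± 4672 in IRI (SD, n = 4 each). The sham arrays lay close together, with a coefficient of variation of 5.69%, while that of the IRI arrays was 23.1%, with IRI 1 low and IRI 18 high. The fitted change was 1.47 ± 0.16 (SE) on the log2 scale, or 2.76-fold (limma, Benjamini-Hochberg adjusted p = 0.000633). An exact permutation test over arrays gave p = 0.0286, the smallest it can give. The same signals before scaling were 5419 to 7239 on sham and 17915 to 26239 on IRI arrays.

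The partner strand, miR-21a-3p, passed from undetected to clearly measured. Its scaled signal was 10.9, 14.1, 7.23 and -3.06 on sham 1, 2, 3 and 6, and it was detected on 0 of these 4 arrays. On sham arrays the dimmest miRNA that stood well above background read 23.9 to 27.6, so these values are a bound and have no order. On the IRI arrays it was detected on 4 of 4, at 336 on IRI 1, 424 on IRI 2, 260 on IRI 3 and 331 on IRI 18, with a mean of 338 ± 67.2 (SD, n = 4). The mean on IRI arrays was at least 13.1-fold that on sham arrays, taking for each sham array the lowest signal well above background. The lowest IRI array stood at least 9.42-fold above the highest such sham limit. The fitted log2 change was 4.27 ± 0.13 (SE, limma, adjusted p = 6.68e-07). It depends on the floor of 17.3 scaled units set under dim signals and is no measured size. All 4 sham arrays stood at that floor in the fit, so the p holds no spread of sham signals. The arm also entered the test only through the IRI arrays. With normexp background correction, a model of signal plus noise, the fitted change was 1.06 (adjusted p = 0.000348).

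**Figure D1:**
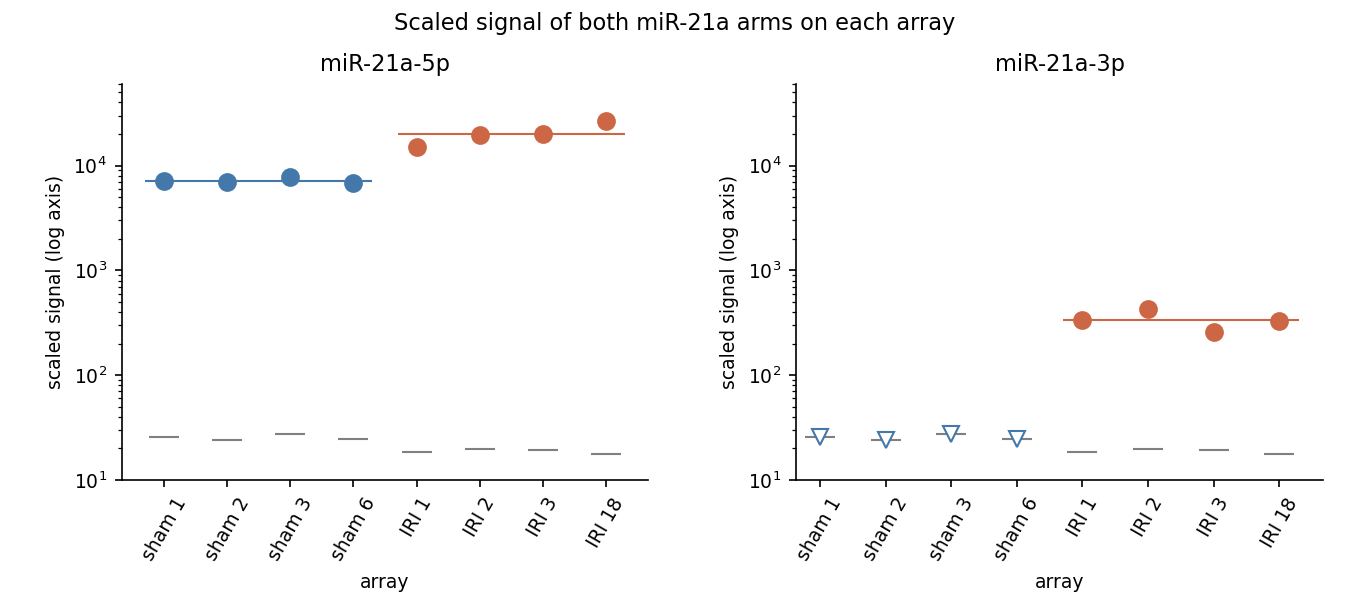
Scaled signal (log axis) of miR-21a-5p on the left and miR-21a-3p on the right for each of the 8 arrays. Filled points are detected values, open triangles are sham arrays without detection drawn at that array's lowest signal well above background (grey dashes), and lines are group means. For 5p the IRI arrays, 15093 to 26431, lie above the sham arrays, 6822 to 7764, and for 3p the IRI arrays at 260 to 424 lie above every dash.

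Among the 379 miRNAs tested, 46 (12.1%) were called higher in IRI and 139 (36.7%) were called lower (limma, threshold 0.05 on the adjusted p), so 48.8% were called in some direction. Both arms of miR-21a were among those called higher, although miR-21a-3p entered the test only through the IRI arrays, where it was detected. This split depends on the scaling, since leaving it out gave 53 rises and 1 fall, labelling spike-ins gave 72 and 2, and the total signal of the other miRNAs gave 123 and 15. With normexp it was 18 and 159. The median change of all tested miRNAs was -0.11 (log2) and moved to 0.17, 0.19 and 0.24 with those 3 scalings. Relative to that median, miR-21a-5p was higher by 1.58 (log2) with the percentile scaling, and by 1.58 to 1.81 in the 5 other scalings. Among the 317 miRNAs detected on all 8 arrays, the change of miR-21a-5p stood at rank 6. No rank is given for miR-21a-3p, whose fitted change depends on the floor. A rise of at least 2-fold that passed the test was seen for 5.28% of the tested miRNAs, and 10.6% had all 4 IRI arrays above all 4 sham arrays.

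**Figure D2:**
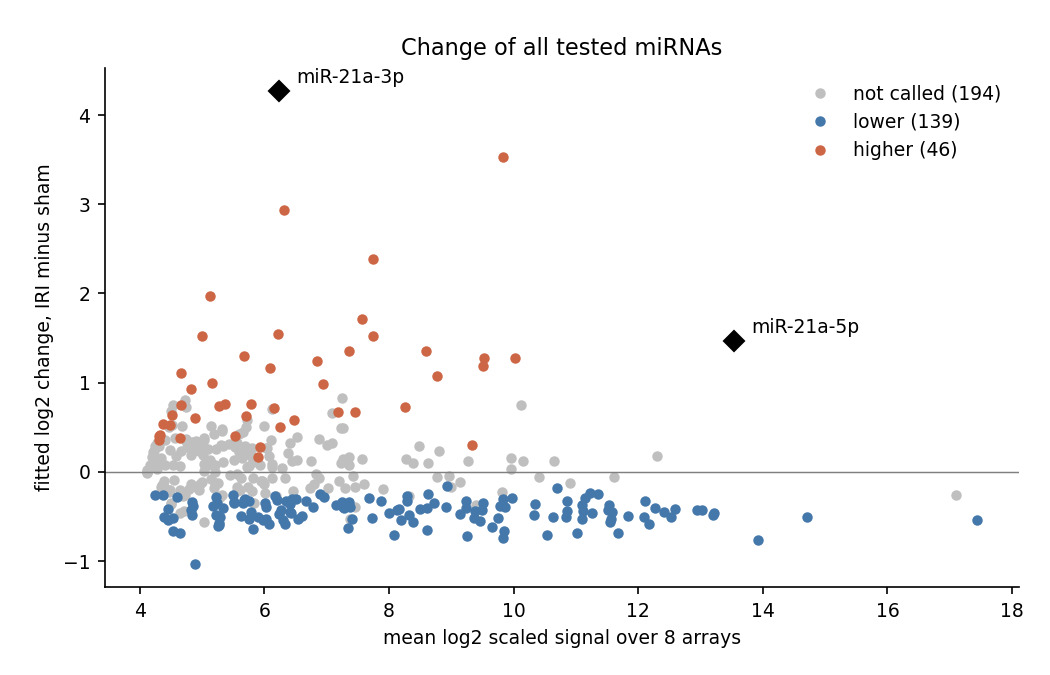
Fitted log2 change (IRI minus sham) against mean log2 scaled signal over the 8 arrays for the 379 tested miRNAs, coloured by call (46 higher, 139 lower). The black diamonds are miR-21a-5p at 1.47 and miR-21a-3p at 4.27, the latter with its sham arrays at the floor.

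Each slide column gave the same direction, as must follow where the groups do not overlap, so the direction adds no support. Comparing the sham with the IRI array of the same column, miR-21a-5p was 2.12, 2.79, 2.55 and 3.87-fold higher in columns 1 to 4. For miR-21a-3p the corresponding folds were at least 13.2, 17.8, 9.42 and 13.3. Column 4, with sham 6 and IRI 18, had the largest 5p fold, and column 2 the largest 3p bound.

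The rise of miR-21a-5p also showed without the percentile scaling, as its share of the summed signal of all miRNAs on its own array. Such a share scales each array to its own total, so it also moves with the other bright miRNAs in that sum. That share was 1.09%, 1.20%, 1.13% and 1.05% on sham 1, 2, 3 and 6, and 2.97%, 4.03%, 3.93% and 4.87% on IRI 1, 2, 3 and 18. The sham mean was 1.12 ± 0.0614% and the IRI mean 3.95 ± 0.776% (SD, n = 4), with a ratio of 3.53 (exact permutation test, two-sided, p = 0.0286). Its place by signal among detected miRNAs went from 9 to 12 on sham arrays to 3 or 4 on IRI arrays. On sham arrays its nearest neighbours in that order were miR-26a-5p or miR-30a-5p above and let-7b-5p or miR-30c-5p below. On IRI arrays miR-5100 or miR-6366 stood above it and miR-3968 or miR-5100 below it. Probes differ in brightness, so the order is one of signals and not of molecules. The 3p arm held 0.0515% to 0.0873% of the signal on IRI arrays, at places 85 to 101 among 393 to 447 detected miRNAs.

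Both probes of miR-21a-5p, each detected on all 8 arrays, were called higher in IRI, as were 12.7% of all 537 tested probes. The 20 nt probe of miR-21a-5p gave 4229 to 4810 on sham and 8699 to 15407 on IRI arrays. Its change was 1.37 ± 0.16 (SE, log2), or 2.58-fold (limma, adjusted p = 0.000406). The 19 nt probe gave 2593 to 2954 on sham and 6393 to 11024 on IRI arrays. Its change was 1.62 ± 0.15, or 3.07-fold (limma, adjusted p = 0.0002). Neither probe had overlapping groups. Each was printed as 15 spots per array, of which 13 to 15 were used, and the spots of an array varied by 3.70% to 6.96% for the 20 nt probe and 1.58% to 3.67% for the 19 nt probe (CV).

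For miR-21a-3p the sham arrays lay at background with each of the 4 probes. The 13, 14 and 15 nt probes entered the test only through the IRI arrays, so their number called is not read against that share. Their bounds use the dimmest probe well above background, 16.8 to 22.9 on sham arrays, in place of the limit for summed signals. The adjusted p-values are of the fit, in which every sham array stood at the floor, and not of the bounds. The 15 nt probe gave 3.71 to 8.42 on sham and 129 to 204 on IRI arrays, at least 8.57-fold higher (limma, adjusted p = 1.24e-06). The 14 nt probe gave 1.24 to 7.71 and 90.7 to 152, at least 6.22-fold higher (adjusted p = 5.01e-06). The 13 nt probe gave -5.14 to 0.368 and 27.5 to 48.0, at least 1.98-fold higher (adjusted p = 0.00068). With the floor doubled the call of the 13 nt probe was lost (log2 change 0.20, adjusted p = 0.186). The 12 nt probe was detected on 2 of 4 IRI arrays, at 12.2 to 20.5 over the 4, and was not tested.

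**Figure D3:**
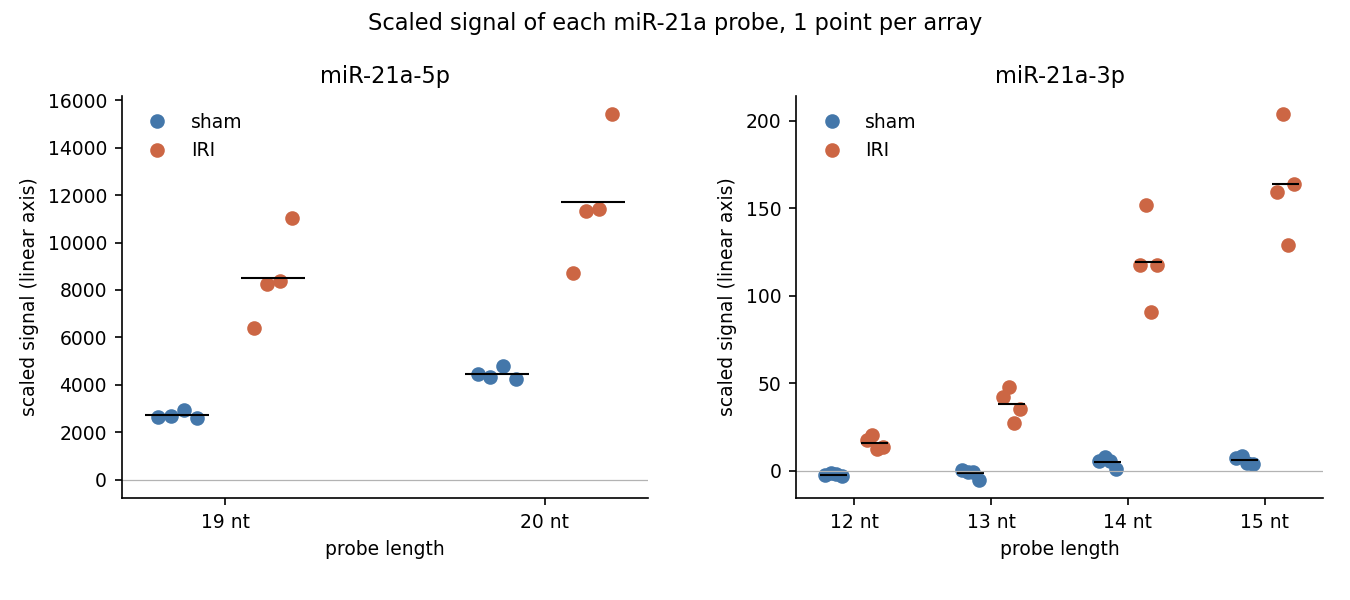
Scaled signal (linear axis) of each probe of miR-21a-5p (left) and miR-21a-3p (right) by probe length, 1 point per array, with black bars at the group means. On both 5p probes and on the 13, 14 and 15 nt probes of 3p, the 4 IRI arrays lie above the 4 sham arrays.

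The 5p probes did not rise in step. Within an array, the signal of the 20 nt probe over that of the 19 nt probe was 1.67, 1.61, 1.63 and 1.63 on sham 1, 2, 3 and 6. On IRI 1, 2, 3 and 18 it was 1.36, 1.38, 1.36 and 1.40. The groups did not overlap, and the mean went from 1.64 ± 0.0244 in sham to 1.37 ± 0.0167 in IRI (SD, n = 4), which is a change of -0.25 on the log2 scale. The same ratio of the longer to the shorter probe could be formed for 166 other miRNAs with 2 probes. Its change had a median of -0.01 among them, with a 5th to 95th percentile range of -0.14 to 0.07, and 15.1% of them had groups that did not overlap. A change larger in size was seen for 3 of the 166. Among the 21 whose mean signal was above that of miR-21a-5p or less than 2 log2 units below it, the change ran from -0.09 to 0.06. The signals of these 21 changed by -0.76 (miR-3968) to 0.18 (miR-3473b) on the log2 scale, against 1.47 for miR-21a-5p. They therefore do not show how the ratio behaves in a bright miRNA that rises as much. This ratio was examined after the values were seen and is given as a description, with no test. It uses signals of the same array, so scaling between arrays does not enter it.

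**Figure D4:**
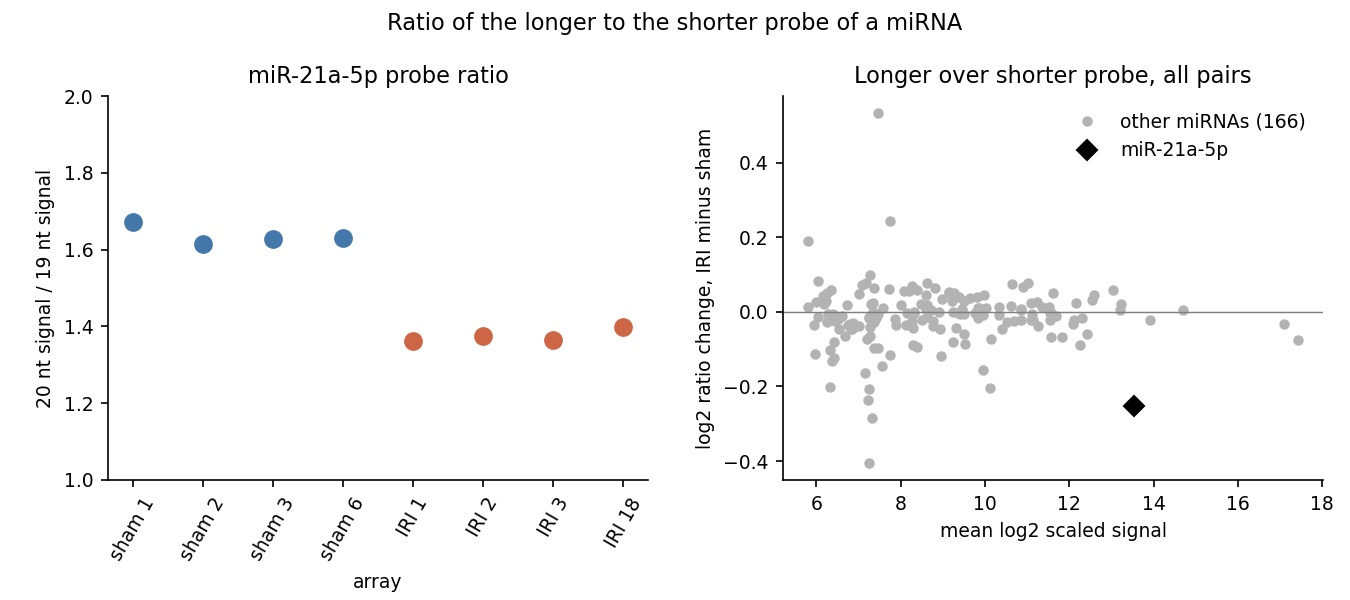
Left, signal of the 20 nt probe divided by that of the 19 nt probe of miR-21a-5p on each array (the axis starts at 1), with sham at 1.61 to 1.67 and IRI at 1.36 to 1.40. Right, log2 change (IRI minus sham) of the longer over the shorter probe against mean log2 scaled signal for 166 other miRNAs (grey) and miR-21a-5p (black diamond, -0.25).

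The arms were next compared within each array, as the log2 signal of miR-21a-3p minus that of miR-21a-5p. With the undetected sham signals set to the lowest signal well above background, the difference rose by at least 2.24, or at least 4.73-fold (exact permutation test, two-sided, p = 0.0286). Every sham 3p value in it was a set limit, so this p holds no measured spread of the 3p arm in sham and is not read as support. With normexp correction, the difference fell by 0.45 instead (exact permutation test, p = 0.0571). That correction adds 50 units per probe, 200 over the 4 probes of the 3p arm, and left sham signals of 246 to 257 against 513 to 776 in IRI. On the IRI arrays, where both arms were measured, the difference was -5.49 on IRI 1, -5.53 on IRI 2, -6.25 on IRI 3 and -6.32 on IRI 18. IRI 1 and IRI 2 thus lay near each other and apart from IRI 3 and IRI 18. The order of the IRI arrays differed between the arms. The 5p signal was highest on IRI 18 and lowest on IRI 1, whereas the 3p signal was highest on IRI 2 and lowest on IRI 3. The spots of the 15 nt probe of 3p varied by 1.95% to 6.91% within an IRI array (CV).

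Both arms were tested for 38 precursors, that of miR-21a only because its 3p arm was detected on the IRI arrays, so the values that follow are a description. The change of the 3p arm minus that of the 5p arm was 2.80 (log2, floor-dependent) for miR-21a. Among the others it ran from -1.09 (miR-574) to 1.46 (miR-32), with a median of -0.02. The 3p arms of miR-574 and miR-32 were not detected on every array either, so both ends of this range use such an arm. For miR-574 the 5p arm, detected on every array, changed by 1.36 and the 3p arm by 0.27.

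The relatives of miR-21a gave no measurable signal. miR-21b, miR-21c, miR-590-5p and miR-590-3p were detected on 0 of 8 arrays, with group means between -5.98 and 3.03 scaled units. The longer probe for miR-21c shares its last 13 bases with the 20 nt probe of miR-21a-5p, and the probes for miR-21b share an inner run of 13 bases with those of miR-21a-5p. On IRI 18, where miR-21a-5p reached 26431, miR-21c read -5.84 and miR-21b 0.0741.

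The list of miRNAs under inflammatory transcription factors (NF-κB, AP-1, STAT3, CREB) held 8 tested members, of which 2 were called higher, 1 lower and 5 neither, with a median change of -0.01 against -0.11 over all tested, of which 12.1% were called higher and 36.7% lower. The counts move with the processing, to 1 higher and 0 lower without scaling (median 0.29), 5 and 1 with the total signal of the other miRNAs (median 0.36), and 0 and 1 with normexp (median -0.13). miR-132-3p, a CREB-responsive miRNA, was detected on 1 of 4 sham and 4 of 4 IRI arrays, and its mean went from 17.5 ± 4.61 to 54.1 ± 1.70 (SD, n = 4). Its fitted change was 1.53 ± 0.12 (limma, adjusted p = 0.000291) and rests in part on the floor, and with normexp it was 0.17 and not called. miR-31-5p was detected on 0 sham and 4 IRI arrays, with a fitted change of 0.40 (adjusted p = 0.0411) that turned to -0.09 with normexp and missed the threshold in 4 of the 5 other scalings. miR-212-3p, which shares a locus with miR-132, fell by 0.54 ± 0.08 (adjusted p = 0.00161), but was not called without scaling (-0.24, adjusted p = 0.164) or with the spike-ins (-0.22, adjusted p = 0.158), and was -0.16 with the total signal of the others. The NF-κB-responsive miR-146a-5p had 209 ± 83.2 in sham and 139 ± 24.2 in IRI (SD, n = 4) and was not called (adjusted p = 0.117).

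In the list of TGF-β and fibrosis miRNAs, 0 of 9 tested members were called higher and 6 lower, with a median change of -0.45, beside 12.1% higher and 36.7% lower over all tested miRNAs. The calls were miR-192-5p (-0.69), miR-29c-3p (-0.57), miR-29b-3p (-0.49), miR-200a-3p (-0.46), miR-200b-3p and miR-29a-3p. miR-29 family members are known to repress collagen genes, and the miR-200 family represses Zeb1 and Zeb2. These calls depend on the scaling, since 0 of the 9 were called without scaling or with the spike-ins, 3 after quantile normalization and 1 with the total signal of the other miRNAs, and miR-29a-3p turned to 0.05 after quantile normalization. The hypoxia miRNA miR-210-3p, a target of HIF, had 33.3 ± 1.30 in sham and 29.2 ± 4.99 in IRI (SD, n = 4). Its change of -0.21 was not called (adjusted p = 0.223) and turned to 0.10 without scaling, 0.12 with the spike-ins and 0.17 with the total signal of the others.

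**Figure D5:**
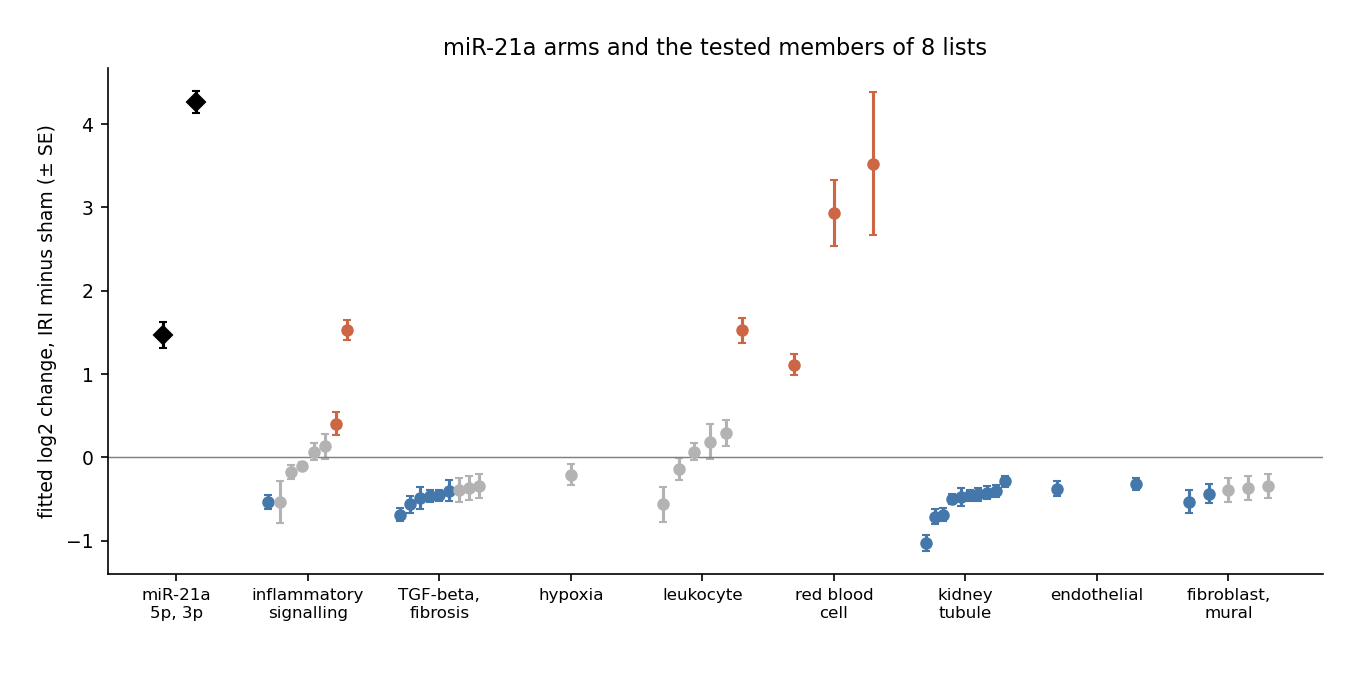
Fitted log2 change (IRI minus sham, bars are SE) of both miR-21a arms (black diamonds, 5p at 1.47 and 3p at 4.27) and of the tested members of 8 lists, coloured orange where called higher, blue where called lower and grey where not called. The red blood cell list has 3 of 3 called higher, beside 12.1% of all tested miRNAs. The kidney tubule list has 10 of 10 called lower, beside 36.7% of all tested miRNAs, a count falling to 1 without scaling.

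Markers of the cells that a kidney sample can hold were read beside miR-21a, and their part in its rise was not tested. Of the leukocyte markers 1 of 6 tested was called higher, beside 12.1% of all tested miRNAs. The count was 3 higher with the total signal of the others, 1 higher and 2 lower after quantile normalization, and 1 higher and 1 lower with normexp. It was miR-223-3p, the neutrophil and myeloid miRNA, which went from 127 ± 8.55 to 370 ± 74.0 (SD, n = 4; log2 change 1.53 ± 0.15, limma, adjusted p = 0.000488). miR-142a-3p, found across blood cells, went from 325 ± 55.4 to 398 ± 66.6 and was not called (adjusted p = 0.16). Also not called with the percentile scaling were miR-142a-5p (log2 change 0.19), miR-155-5p (0.07), miR-342-3p (-0.14) and miR-150-5p (-0.57, limma, adjusted p = 0.0566). The summed leukocyte level, which includes miR-223-3p, was 622 to 782 on sham and 814 to 1173 on IRI arrays. miR-223-5p was detected on no array. Of the red blood cell markers 3 of 3 tested (2 of 3 with normexp) were called higher, beside 12.1% of all tested miRNAs. These were miR-451a, miR-144-3p and miR-486a-5p. miR-144-3p was detected on 2 of 4 sham arrays and miR-486a-5p on 0, so both entered the test only through the IRI arrays. With normexp miR-486a-5p was not called. The summed level of the list was 42.7 to 893 on sham and 2940 to 4100 on IRI arrays.

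All 10 kidney tubule markers were detected on every array, and their summed level was 28015 to 31900 on sham and 20518 to 23501 on IRI arrays. With the percentile scaling 10 of 10 were called lower, beside 36.7% of all tested miRNAs, led by miR-192-3p (-1.03 ± 0.09, adjusted p = 0.000398) and miR-194-5p (-0.71 ± 0.09, adjusted p = 0.00104), but without scaling, and with the spike-ins, 1 of the 10 was. The change of miR-10a-5p was -0.29, and it turned to 0.01 without scaling, 0.03 with the spike-ins, 0.06 after quantile normalization and 0.09 with the total signal of the others. The endothelial markers miR-126a-5p and miR-126a-3p were both called lower (median -0.35), beside 36.7% of all tested miRNAs. Of these 2 markers 0 were called without scaling, with the spike-ins or with the total signal of the others. With the last of these their median turned to 0.03. After quantile normalization miR-126a-3p stood at 0.13, while miR-126a-5p was called lower at -0.57 (limma, adjusted p = 0.00836). The summed level of both was 4623 to 5333 on sham and 3836 to 4321 on IRI arrays. Of the fibroblast and mural markers 2 of 5, miR-145a-5p and miR-143-3p, were called lower, a share near the 36.7% of all tested miRNAs, with 0 called without scaling and 4 with normexp. Their summed level was 1885 to 2085 and 1152 to 1781. Of 6 markers of liver, brain, muscle and pancreas, 5 were detected on no array and miR-122-5p, the liver miRNA, on 1 IRI array.

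The miRNAs whose log2 signal followed miR-21a-5p most closely over the 8 arrays, among 316 detected on every array, were miR-18a-5p (Pearson r 0.99), miR-20a-5p (0.95), miR-6931-5p (0.94), miR-188-5p (0.93) and miR-223-3p (0.93). These r values hold the difference between the groups, and all points share the arrays and their scaling. Within the groups, with each group's mean removed, r was 0.86 for miR-18a-5p and 0.93 for miR-20a-5p, both of the miR-17-92 family. It was 0.11 for miR-6931-5p, 0.24 for miR-188-5p and -0.05 for miR-223-3p. miR-18a-5p had 25.4 in sham and 51.0 in IRI, a log2 change of 0.99 ± 0.13 (limma, adjusted p = 0.00108), which was 0.06 and not called with normexp. Although detected on every array, it was dim in sham. Its sham mean lay within the 23.9 to 27.6 of the dimmest miRNAs well above background there. miR-20a-5p had 580 and 714, a change of 0.30 ± 0.08 (adjusted p = 0.0158), not called with the 75th percentile over all miRNAs. The lowest r were those of miR-98-5p (-0.98), let-7a-5p (-0.98) and miR-196a-5p (-0.98), with -0.70, -0.70 and -0.65 within groups. Their changes were -0.47, -0.46 and -0.52, and none of the 3 was called without scaling, where the values were -0.16, -0.16 and -0.22.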

How the data were processed

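Total RNA (100 ng) was labelled with Cy3 and hybridised to 1-colour Agilent mouse miRNA arrays. The deposited scanner files hold linear spot intensity from Agilent Feature Extraction 12.0.3.1, background-subtracted and not normalized between arrays, as stated by the submitters' processing notes for the version and per the file headers for the rest. The deposited table of values gives each miRNA a linear ratio whose scaling, centring and making by the authors are not given in the sources used here. A higher ratio went with more signal, and it served only as an alternative.

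Control spots and outlier spots (1422 to 1560 of 56430 per array) were left out, and 0 spots were saturated. Signals were averaged per probe and summed per miRNA. Scaling divided an array by the 75th percentile of the 317 miRNAs that every array detected, relative to the geometric mean of these percentiles. A floor of 17.3 (the 5th percentile of detected signals) was set before log2 was taken. The 379 miRNAs detected on all 4 arrays of a group, and likewise 537 probes, entered a linear model in limma 3.58.1 under R 4.3.3 (lmFit, eBayes, Benjamini-Hochberg over all tested, threshold 0.05, two-sided, no covariate). Where a group had no detection, the fold is a bound against, per array, the miRNA's signal or, if higher, that of the dimmest miRNA with every probe well above background. Single values were compared with exact permutation tests in Python 3.11.15. No 2 arrays held identical values (largest r between arrays 0.996). The fit was tested on simulated data.

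Groups came from the sample titles. Members and lists were chosen with earlier results of these data known. Named were both arms, their probes and relatives, up to 4 called members of each list with the largest change or else up to 2 of the brightest, and the 5 highest and 3 lowest in likeness to miR-21a-5p. miR-32, miR-574, the neighbours in signal order and list members beyond that number were named after their values were seen. A genome of the array's build, mm9, was not used here.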

Additional observations from a re-analysis of the deposited data

How the results depend on the processing

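The rise of miR-21a-5p was called under all 25 alternatives run, at log2 changes of 1.30 to 1.84, and 1.33 to 1.60 when 1 array was left out. That of miR-21a-3p was called under all 24 in which it was tested, at 1.06 (normexp) to 8.28 (the authors' deposited table), and 4.10 to 4.34 with 1 array left out. It was not tested where detection on all arrays was required. Outside the fit of all 1881 miRNAs, miR-21a-3p entered the test only through the IRI arrays. The count of its calls is therefore not read as support. The probes called were 4 or 5, and 5 in each fit without 1 array. Those of the 3p arm entered only through the IRI arrays, and probes of 1 arm overlap. This number is a description only. The 185 miRNAs called became 54 without scaling, 74 with the labelling spike-ins and 111 with all 1881 miRNAs tested, and 153 to 190 with 1 array left out. The change in the difference between the arms, 2.80 with the floor, turned to -0.45 with normexp, where the offset fills the sham signals. With 1 array left out it was 2.62 to 2.93, and the gain in the share of signal of miR-21a-5p was 2.53 to 3.16 percentage points, each with an exact permutation p = 0.0571, the smallest that 4 against 3 arrays allow.

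Same-numbered samples did not deviate together (r -0.16, -0.20 and 0.24), so the numbers were not taken as pairs. With the replicate block on the 6 arrays with shared numbers, 162 miRNAs were called, miR-21a-5p at 1.30 and miR-21a-3p at 4.31. The arm difference was then 3.01 and the share 2.50 (exact permutation p = 0.25 each, the smallest that 3 pairs allow). Signal over background limits the 3p arm: on sham arrays only an upper bound is measured.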

Other observations

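The array's own annotation (mm9) places the 15 nt probe of miR-21a-3p at chr11:86397631-86397645 and the 20 nt probe of miR-21a-5p at chr11:86397588-86397607. The 3p probes thus have the higher coordinates there. RefSeq (GRCm38.p6) has the hairpin on the minus strand with the 3p arm at the lower coordinates. No measured value depends on these positions, and the difference in order was not resolved.

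Beside miR-21a-5p, the miRNAs with a change of probe ratio larger in size were miR-2861 (-0.40), miR-6908-5p (-0.28) and miR-2137 (0.53), all chosen after their values were seen. miR-223-3p, also brighter in IRI, had a change of 0.24.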
